A study of Mus musculus with 8 samples.

Results

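Accessible chromatin was examined at 10 genes of glycolysis in mouse spermatogonia, namely Slc2a1, Hk1, Hk2, Pfkp, Aldoa, Gapdh, Pgk1, Eno1, Pkm and Ldha. The genes were taken by symbol, and a peak was counted for a gene when the gene list deposited with that peak held exactly this symbol. In all, 225 of 328733 peaks were assigned to the 10 genes, and they fell into 45 of the 87144 regions formed by merging overlapping peaks of all libraries. The table assigned peaks to 21490 genes in total.

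The data were ATAC-seq libraries, in which a transposase cuts and tags open DNA, from eGFP-positive germ cells sorted from the testes of PIWIL2-eGFP mice. All mice carried the transgene, in which the Piwil2 promoter drives eGFP in germ cells from before birth through early spermatids, and all received WIN 18,446, a blocker of retinoic acid (RA) synthesis, for 7 days from 2 dpp (days postpartum). The 0 h mice were then collected without RA, and the other mice were collected 18, 48 or 120 h after an RA injection at 9 dpp, each timepoint having 2 libraries, each from 1 mouse. The study assigns the 4 timepoints to undifferentiated, A1/A2, A3 and B spermatogonia, in this order, and the sample labels give a C57BL/6 x 129s4/SvJae background whereas the methods give C57BL/6 x SJL.

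Glycolysis breaks glucose down to pyruvate in the cytosol and yields ATP without oxygen, and lactate dehydrogenase can then turn pyruvate into lactate. Undifferentiated spermatogonia are known for their reliance on this pathway, whereas later germ cells depend more on lactate that Sertoli cells supply. Most of its genes use CpG-rich promoters that are open in many cell types, and several are classical targets of hypoxia inducible factor 1, which binds short elements with the core ACGTG or GCGTG.

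The whole libraries differed in a way that touches each value given here. The authors reduced all libraries to the same number of tags, yet the number of peaks was 72215 and 69089 at 0 h and between 24643 and 39551 in the 6 later libraries, and the median log2 summit value over the regions shared by all libraries was 7.81 and 8.08 at 0 h against 6.43 to 7.38 later. The summit value is the tag coverage at the top of a peak, its lowest value in any library was 24 or 25, and a region without a peak has no height. Height changes are therefore given both as deposited and relative to the median region, that is after each library was centred on its median log2 height. In these bulk libraries, fewer open cells of a type and less open chromatin per cell cannot be told apart. Marker genes were checked by their summed start-region summit values. A marker without a peak in a library entered the sum as 0, although its height there is not known. All 8 germ cell markers had a peak at their start, 7 of them in all 8 libraries, with sums of 3309 and 4107 at 0 h and 1244 to 2720 later. Sertoli markers (4 of 5 with a peak, Amhr2 without) summed to 475 and 620 at 0 h and 56 to 163 later, peritubular markers (3 of 3) to 406 and 461 and then 86 to 240, macrophage markers (2 of 3, Adgre1 without) to 208 and 166 and then 0, and endothelial markers (1 of 3, Pecam1 and Cdh5 without) to 109 and 192 and then 38 to 72. None of the 5 Leydig markers had a start peak. These sums were lower after 0 h, as were the peaks of the glycolysis genes, and their part in the results was not tested.

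The starts of the 10 genes differed in whether they lay under a peak at all. RefSeq (GRCm38.p6) lists 17 starts for them, of which 11 lay under a peak in all 8 libraries, 3 in some libraries and 3 in none. The starts without a peak were the upstream start of Hk1, the start of Aldoa at chr7:126800447 and the second start of Pkm at chr9:59657227. The 120 bases before 5 starts are printed 5′ to 3′ in the direction of transcription to set an accessible housekeeping start beside 1 that was weakly accessible and 1 that was not, with the cores ACGTG and GCGTG and their reverse complements in capitals. They are Ldha (chr7:46845684-46845803, plus strand, a peak in 3 libraries), Hk2 (chr6:82774455-82774574, minus strand, 8 libraries), Gapdh (chr6:125165774-125165893, minus strand, 8 libraries), Pgk1 (chrX:106186980-106187099, plus strand, 8 libraries) and the upstream start of Hk1 (chr10:62379909-62380028, minus strand, no library).
Ldha: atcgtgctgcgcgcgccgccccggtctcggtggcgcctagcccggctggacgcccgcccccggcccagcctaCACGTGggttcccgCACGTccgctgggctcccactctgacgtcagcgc
Hk2: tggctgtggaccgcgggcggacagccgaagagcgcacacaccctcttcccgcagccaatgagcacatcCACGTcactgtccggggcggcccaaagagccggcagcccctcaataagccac
Gapdh: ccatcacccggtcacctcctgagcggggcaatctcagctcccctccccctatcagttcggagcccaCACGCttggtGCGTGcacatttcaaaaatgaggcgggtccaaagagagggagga
Pgk1: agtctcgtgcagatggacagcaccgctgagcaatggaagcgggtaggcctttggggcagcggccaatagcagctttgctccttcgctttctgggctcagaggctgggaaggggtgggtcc
Hk1 upstream: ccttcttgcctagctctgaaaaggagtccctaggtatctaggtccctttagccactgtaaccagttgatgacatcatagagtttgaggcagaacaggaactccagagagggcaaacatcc

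The stretch before Ldha was 76.7% GC and that before the upstream Hk1 start 48.3% GC. Over the longer RefSeq promoter windows of 300 bases (250 before to 50 after a start, both strands), 1 or both of the cores ACGTG and GCGTG occurred in 14 of the 17 windows of these genes (82.4%) and in 43.8% of all 32851 RefSeq promoters. Split by core, ACGTG was found in 9 of 17 windows against 19.6% of all promoters, and GCGTG in 9 of 17 against 32.4%. Some of the 17 windows overlap, as at Aldoa and Eno1, so the same site can count in more than 1 window. In 300 bases around the summit of regions open in all 8 libraries the shares of the cores were closer. ACGTG occurred in 5 of the 15 glycolysis regions against 24.4% of all such regions, and GCGTG in 8 of 15 against 48.9%. Other short elements also differed in the promoter windows. GGGCGG (the GC box) was found in 10 of 17 against 35.7% of all promoters, CCAAT in 10 of 17 against 37.4% and TATAAA in 1 against 13.6%. The E-box CACGTG, which holds ACGTG on both strands, was found in 1 of the 17 windows, that of Ldha, against 7.15% of all promoters. The Ldha window also had the most CpG dinucleotides of the 17, with 30, and the upstream Hk1 window had 1. Such a match is a description of the letters and shows no bound factor.

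Each of the 10 genes had a peak in both libraries at all 4 timepoints, as did 72.8% of all 20673 genes accessible at any timepoint, where a timepoint counted only if its libraries both had a peak. For Ldha at 120 h the libraries shared no region, and the only peak of replicate 2 (39) lay at the start of Ldhc. With peaks of at least 50, Ldha had 0 peaks in 120 h replicate 2. The same held with peaks inside the gene or within 1000 bp of its start. Of their 45 regions, 35 were counted at any timepoint, and 15 of these 35 (42.9%) were counted at all 4 timepoints, against 25.3% of all regions. A further 13 (37.1%) were counted at 0 h only, against 49.8% of all regions, and none was counted at 120 h only, against 2.49%. The other regions were counted at 0 h and 18 h (2 regions), at 0 h, 48 h and 120 h (2 regions), or in 1 region each at 0 h and 120 h, at 0 h and 48 h, and at 0 h, 18 h and 48 h, so all 35 were counted at 0 h. The median GC content of 300 bases around the summit was 64.0% in the 15 regions open throughout and 54.0% in the 13 open at 0 h only. It was 61.0% over all 15536 regions with a peak in all 8 libraries and 51.7% over all 87144 regions. Of the 45 regions, 24 were also assigned to another gene. With an equal number of highest peaks taken from each library, 3 regions were counted at 0 h only and 1 at 120 h only.

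**Figure D1:**
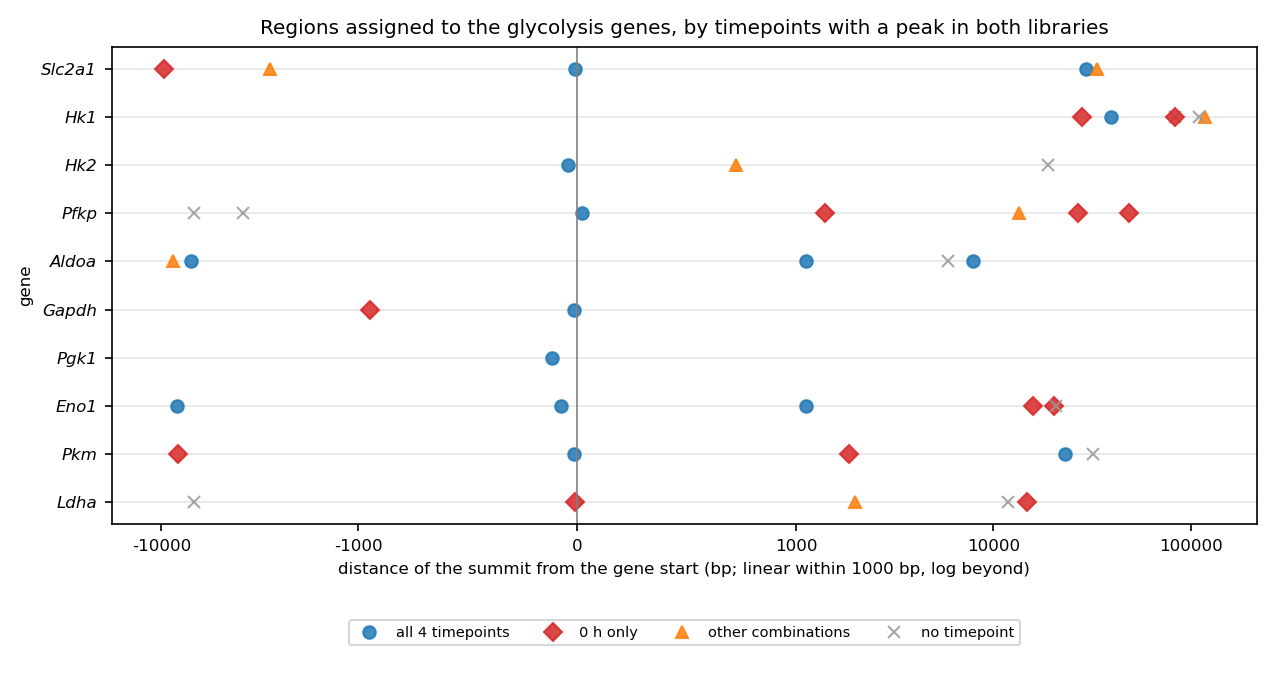
Position of the 45 regions assigned to the 10 genes (rows), as the distance of the region's summit from the gene start in bp (x axis, linear within 1000 bp and logarithmic beyond). Circles mark the 15 regions with a peak in both libraries of all 4 timepoints and diamonds the 13 at 0 h only. Triangles mark other combinations and crosses the 10 that no timepoint had in both libraries. Of the 15 circles, 7 lie within 1000 bp of the start of the gene in their row and 8 farther from it. Some of these 8 lie near the start of another gene, and Ldha has a diamond at its start.

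The difference in peak number between 0 h and the later libraries was greatest at Hk1, Pfkp, Pkm and Ldha. The 10 genes together had 41 and 40 peaks in the 0 h libraries, then 22 and 27 (18 h), 21 and 27 (48 h) and 26 and 21 (120 h). Both 0 h libraries lay above all 6 later libraries, but as a share of a library's own peaks the order was the reverse, with 0.0568% and 0.0579% at 0 h against 0.0657% to 0.0852% later. At Ldha there were 4 and 5 peaks at 0 h and 1 or 2 in each later library, a difference of 3.17 peaks between the means. At Hk1 there were 5 and 5 peaks against 1 to 3, a difference of 3.0. Both at Pfkp and at Pkm there were 5 and 5 peaks against 1 to 4 and 2 to 3, a difference of 2.67 for either gene. In these 4 of 10 genes the 0 h libraries did not overlap the later ones, as in 38.4% of all genes, and the exact permutation test gave p = 0.0714, two-sided, which is the smallest p that 2 against 6 libraries allow. The difference was smaller at Eno1 (6 and 5 against 3 to 5, exact p = 0.143), Gapdh (3 and 2 against 1 to 3, exact p = 0.357), Hk2 (2 and 3 against 1 or 2, exact p = 0.357), Slc2a1 (5 and 5 against 3 to 5, exact p = 0.429) and Aldoa (5 and 4 against 3 to 5, exact p = 0.643), where the libraries overlapped. Pgk1 had exactly 1 peak in every library. Adjustment over 10 genes leaves none of these p-values under 0.05, since the smallest is already above it. With equal numbers of highest peaks per library this order did not hold, as the difference was 1.17 at Pkm, 0.67 at Hk1, 0.17 at Ldha and -0.5, with fewer peaks at 0 h than later, at Pfkp, and the difference summed over the 10 genes shrank from 16.5 to 3.5 peaks.

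**Figure D2:**
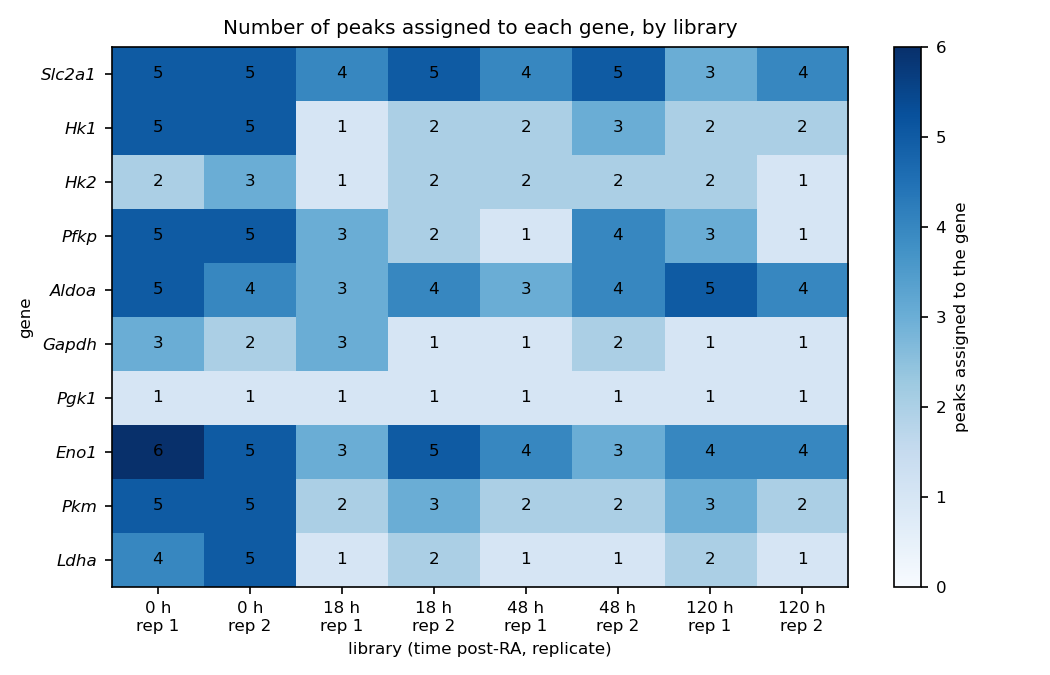
Number of peaks assigned to each gene (rows) in each of the 8 libraries (columns), with the number printed in each cell and darker blue for more peaks. Hk1, Pfkp, Pkm and Ldha have 4 or 5 peaks in both 0 h libraries and fewer in every later library, whereas Pgk1 has 1 throughout.

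At 18 and 48 h the heights of the glycolysis regions fell by about as much as those of regions in general, and relative to the median region none passed the test. At 120 h against 0 h their changes varied, with the start of Hk2 highest and that of Pfkp lowest after median centring. Heights were compared in the 15 regions where each of the 8 libraries had a peak, with limma over all 15536 such regions, the other 30 regions lacking a height in at least 1 library. All 15 had a change below 0 at 18 h against 0 h, and 14 passed the threshold as lower, as did 92.3% of all regions, with a median log2 change of -1.29 against -1.23 over all regions. At 48 h 14 were lower, against 93.3% of all regions, with medians of -1.46 and -1.36. At 120 h 4 were lower than at 0 h, against 44.8% of all regions, with medians of -0.71 and -0.75. No region was higher than at 0 h at any timepoint, also at an unadjusted p under 0.05, against 0.296%, 0.328% and 0.882% of all regions at 18, 48 and 120 h. Without 0 h replicate 2 or without 18 h replicate 1 the count at 18 h was 9. At 120 h it was 1 without 0 h replicate 2, 2 without 120 h replicate 2 and 12 without 120 h replicate 1.

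With each library centred, no glycolysis region passed the threshold at 18 h (0.225% of all regions were lower and 1.25% higher) or at 48 h (1.51% lower and 3.26% higher). At an unadjusted p under 0.05 in limma there were 2 lower and 1 higher at 18 h, and 1 lower and 3 higher at 48 h. Between 48 h and 18 h no glycolysis region changed in limma, either as deposited (0.00644% of all regions lower, 0.0% higher) or relative to the median (0.0% either way), and the unadjusted counts were 1 lower and 1 higher as deposited and 1 lower and 2 higher relative to the median. At 120 h against 0 h, 1 region was lower (15.8% of all regions) and 1 higher (23.0% of all regions) relative to the median. From 48 h to 120 h, 4 regions rose as deposited, against 23.7% of all regions, and 2 rose relative to the median, against 9.47%. None was lower in this comparison (0.18% of all regions as deposited, 7.45% relative to the median), while 1 was lower at an unadjusted p under 0.05 relative to the median. The count of 4 was 0 without either 48 h library or without 120 h replicate 1, and 9 without 120 h replicate 2.

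**Figure D3:**
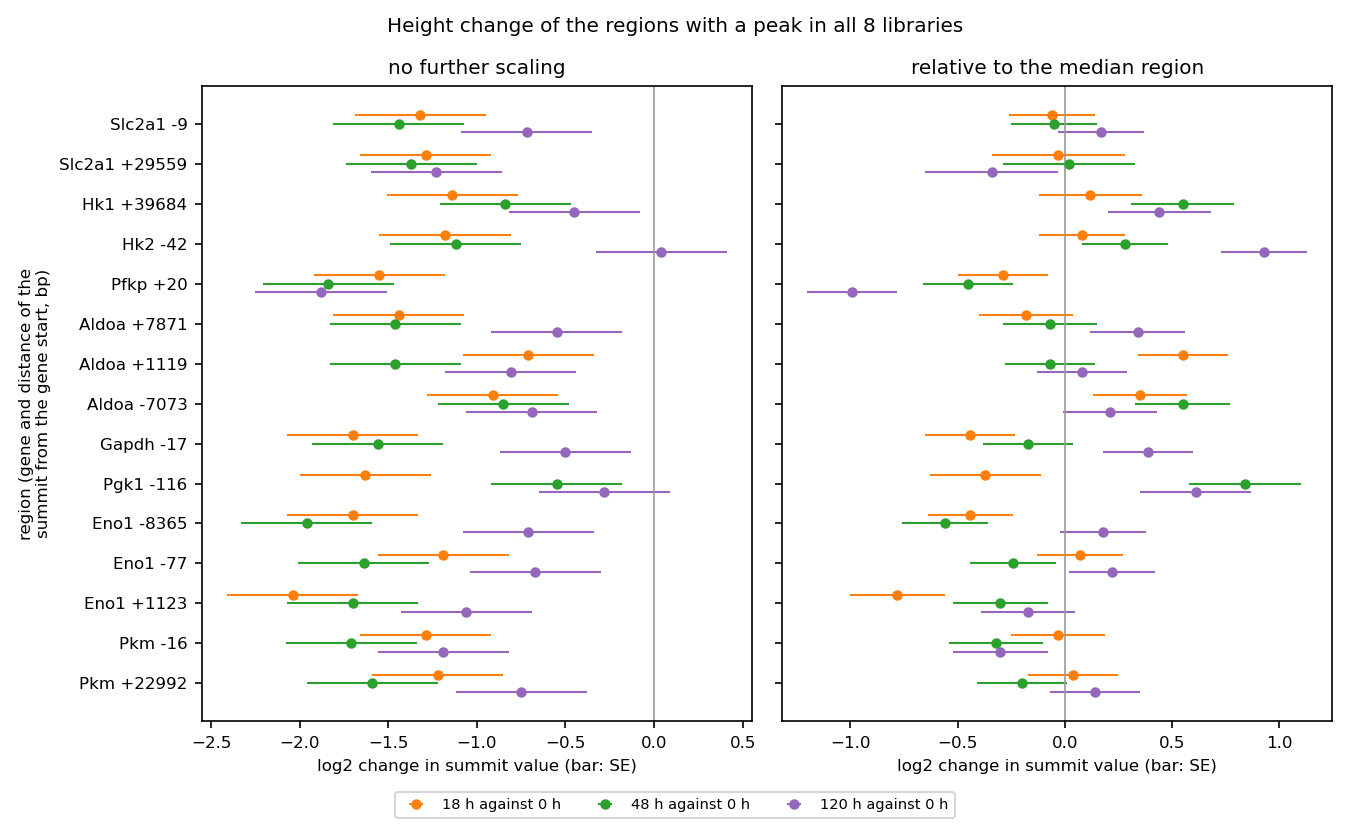
Change in log2 summit value of the 15 regions where each of the 8 libraries had a peak (rows, gene and distance of the summit from the gene start in bp) at 18, 48 and 120 h against 0 h, with points for the limma estimate and bars for its SE, as deposited (left) and relative to the median region (right). On the left most points lie below 0, while on the right they lie on both sides of 0, from -0.99 for Pfkp to 0.93 for Hk2, both at 120 h, with Pgk1 at 0.84 at 48 h and the intronic Eno1 region at -0.78 at 18 h.

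Slc2a1 encodes GLUT1, the transporter that brings glucose into the cell. Its start region (chr4:119108460-119109606, mm10, at the first exon and over a CpG island) had summit values of 301 and 362 (0 h), 117 and 150 (18 h), 100 and 148 (48 h) and 244 and 164 (120 h). All later libraries lay below both 0 h libraries. As deposited, 92.3%, 93.3% and 44.8% of all 15536 regions passed as lower at 18, 48 and 120 h. The share of all regions with every later library below 0 h was not computed, here and for the genes below. The log2 change was -1.32 at 18 h (SE 0.37, adjusted p = 0.00101) and -0.72 at 120 h (adjusted p = 0.0979), and relative to the median region it was -0.06 and 0.17 (adjusted p = 0.944 and 0.521). The region was 1 wide peak in both 0 h libraries and in 120 h replicate 1 and was split into 2 peaks in the other 5 libraries, which kept the number of Slc2a1 peaks up after 0 h. A region 29559 bp downstream of the start, also assigned to Mir1957 and named because it was 1 of the 4 lower at 120 h, had values of 136 and 315 at 0 h and 55 to 116 later, with a log2 change at 120 h of -1.23 (adjusted p = 0.00361) or -0.34 relative to the median region (adjusted p = 0.399).

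Hk1 and Hk2 encode hexokinases, which trap glucose in the cell as glucose 6-phosphate. Hk1 had no peak at its upstream start, whose sequence is printed above. Its highest region (chr10:62339499-62340771) covered the downstream RefSeq start at chr10:62340421 and also lay near the start of 2210417K05Rik, and its values were 126 and 217 (0 h), 58 and 97 (18 h), 94 and 91 (48 h) and 141 and 104 (120 h). The 120 h libraries overlapped the 0 h libraries. The log2 change was -1.14 at 18 h (adjusted p = 0.00344) and -0.45 at 120 h (adjusted p = 0.322), or 0.12 and 0.44 relative to the median region (adjusted p = 0.888 and 0.151). The 2 Hk1 regions counted at 0 h only lay in introns and had no peak in any later library.

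At Hk2 the start had the greatest rise of the 15 regions at 120 h against 0 h after median centring. This did not hold with quantile normalization, where Hk1 (0.49) was above Hk2 (0.44). The Hk2 start region (chr6:82774254-82774827, 42 bp upstream of the start and over a CpG island) had values of 455 and 660 (0 h), 216 and 272 (18 h), 219 and 292 (48 h) and 734 and 435 (120 h). The 120 h libraries spanned the 0 h libraries and lay above all libraries of 18 and 48 h. As deposited the log2 change was -1.18 at 18 h (adjusted p = 0.00266), 0.04 at 120 h against 0 h (SE 0.37, adjusted p = 0.932) and 1.16 at 120 h against 48 h (adjusted p = 0.0181). Relative to the median region Hk2 rose by 0.93 at 120 h against 0 h (SE 0.20, adjusted p = 0.00397), a change above that of 92.7% of all regions, and its adjusted p ranged from 0.00397 to 0.944 over the alternatives, which include those without centring. With quantile normalization, which also removes the shift of whole libraries, the Hk2 change was 0.44 at 120 h against 0 h (adjusted p = 0.135) and 0.13 at 120 h against 48 h (adjusted p = 0.778), so neither passed. With centring, the change was 0.8 to 1.07 with each library left out, and the adjusted p at most 0.0352. The relative rise from 48 h to 120 h was 0.66 (adjusted p = 0.0414), and it no longer passed without either 48 h, either 120 h or either 18 h library (adjusted p = 0.0577 to 0.161). A second Hk2 region inside the first intron, 726 bp from the start, was counted at 0 h and 48 h. It also had a peak of 82 in 18 h replicate 2 and of 100 in 120 h replicate 1. Both were above its 48 h values of 65 and 63.

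Pfkp encodes the platelet form of phosphofructokinase, the enzyme of the committed step. Its start region (chr13:6648495-6649237, over a CpG island) had values of 275 and 403 (0 h), 94 and 137 (18 h), 82 and 105 (48 h) and 127 and 64 (120 h). All later libraries lay well below both 0 h libraries, and the 120 h libraries spanned those of 48 h. The log2 change was -1.55 at 18 h (adjusted p = 0.000201) and -1.88 at 120 h (SE 0.37, adjusted p = 5.8e-06). Relative to the median region the change at 18 h was -0.29 (adjusted p = 0.603), and at 120 h Pfkp fell by 0.99 (SE 0.21, adjusted p = 0.0039), with only 6.71% of all regions lower. The adjusted p for 120 h ranged from 1.04e-08 to 0.0103 over all alternatives, and with centring the change was -1.16 to -0.82 with each library left out. Of its 7 regions, 3 were counted at 0 h only, among them an intronic region 1396 bp from the start with values of 103 and 96 before RA and 41 in 48 h replicate 2.

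Aldoa encodes the aldolase that splits fructose 1,6-bisphosphate. It had no region within 1000 bp of the start used by the deposited table, and its highest region (chr7:126791933-126792818) lay at the start of Ppp4c and was also assigned to Tbx6. A region 1119 bp downstream (chr7:126798862-126799806) covered 2 further RefSeq starts of Aldoa and is given because of these starts, although the rule for named regions, stated below, does not include it and it was chosen after its values were seen. Its values were 292 and 416 (0 h), 193 and 234 (18 h), 128 and 125 (48 h) and 233 and 170 (120 h). The later libraries all lay below those of 0 h. It was the 1 region of the 15 that did not pass at 18 h, with a log2 change of -0.71 (adjusted p = 0.0587, and 0.0303 when only 0 h and 18 h were fitted), or 0.55 relative to the median region (adjusted p = 0.256), and at 120 h the change was -0.81 (adjusted p = 0.0618) or 0.08 (adjusted p = 0.771). The region at the Ppp4c start had values of 307 and 495 at 0 h, 117 to 177 at 18 and 48 h, and 369 and 193 at 120 h.

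Gapdh encodes glyceraldehyde 3-phosphate dehydrogenase, and Pgk1 encodes phosphoglycerate kinase, the enzyme of the first ATP-yielding step. The Gapdh start region (chr6:125164846-125165981, also assigned to Iffo1 and Ncapd2) had values of 554 and 649 (0 h), 139 and 244 (18 h), 176 and 234 (48 h) and 538 and 332 (120 h). All 6 later libraries lay below 0 h, and those of 120 h lay above those of 18 and 48 h. Its log2 change was -1.70 at 18 h (adjusted p = 6.82e-05), -0.50 at 120 h (adjusted p = 0.261) and 1.06 at 120 h against 48 h (adjusted p = 0.0278). After centring these changes were -0.44, 0.39 and 0.56 (adjusted p = 0.39, 0.16 and 0.0779). With the mean signal over the peak in place of the summit, Gapdh was lower at 120 h than at 0 h by a log2 change of -0.81 (adjusted p = 0.0201), and the change from 48 to 120 h was 0.48 (adjusted p = 0.249). A second region 945 bp upstream was counted at 0 h only, with values of 144 and 160 before RA, 69 in 18 h replicate 1 and, among the 48 h libraries, 87 in replicate 2.

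The single Pgk1 region (chrX:106186641-106187364, 116 bp upstream of the start) had values of 250 and 462 (0 h), 88 and 137 (18 h), 217 and 248 (48 h) and 287 and 274 (120 h). Its low point was 18 h, and the libraries of 120 h lay between those of 0 h. The log2 change was -1.63 at 18 h (adjusted p = 0.000118) and -0.55 at 48 h (adjusted p = 0.143), the 1 region of the 15 that did not pass at 48 h. Centred, the changes were -0.37, 0.84 and 0.61 at 18, 48 and 120 h (adjusted p = 0.583, 0.0795 and 0.0709). With centring and a replicate block Pgk1 passed at 48 h and at 120 h (adjusted p = 0.0437 and 0.0405), although the labels do not pair the libraries. The difference between 48 h and 18 h was 1.08 as deposited, with an adjusted p of 1.0 in limma. This was the highest change of all 8757 gene start regions in that comparison, in which 0.0% of all regions passed as higher.

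Eno1 encodes the enolase that makes phosphoenolpyruvate, and it had 3 regions open throughout. The start region (chr4:150236529-150237451) had values of 594 and 774 (0 h), 246 and 358 (18 h), 221 and 215 (48 h) and 532 and 343 (120 h). The mean at 0 h, 684, was above that of 90.7% of the 8757 gene start regions that had a peak in every library. The region 8365 bp upstream (chr4:150228525-150229154) had values of 460 and 503 (0 h), 128 and 172 (18 h), 122 and 126 (48 h) and 380 and 228 (120 h), and the intronic region 1123 bp downstream (chr4:150238168-150238795) had 329 and 319, 71 and 87, 86 and 116, and 223 and 108. In all 3 regions every later library lay below both 0 h libraries, an order whose share over all regions was not computed. The upstream region rose between 48 and 120 h by 1.25 (adjusted p = 0.0132) or by 0.75 relative to the median region (SE 0.20, adjusted p = 0.0286, and 0.0655 to 0.163 when either library of these timepoints was left out), and the start region by 0.97 (adjusted p = 0.0421) or 0.47 relative to the median (adjusted p = 0.108). With quantile normalization neither Eno1 rise passed (0.44 and 0.00, adjusted p = 0.254 and 0.998). The intronic region, named because its fall at 18 h was the greatest of the 15, fell by 2.04 (adjusted p = 4.27e-06) or by 0.78 relative to the median region (adjusted p = 0.104), and at 120 h its change against 0 h was -1.06 (adjusted p = 0.0124) or -0.17 (adjusted p = 0.547). Of the 5 highest regions counted at 0 h only, 2 belonged to Eno1. They lay 20211 and 15795 bp from the start, with values of 125 and 156, and of 77 and 99, at 0 h.

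Pkm encodes pyruvate kinase, which makes pyruvate and ATP in the last step and from which the M1 and M2 forms are spliced. Its start region (chr9:59655877-59656974, also assigned to Parp6) had values of 583 and 632 (0 h), 227 and 270 (18 h), 190 and 181 (48 h) and 285 and 248 (120 h). No later library reached 0 h. The log2 change was -1.29 at 18 h (adjusted p = 0.00119) and -1.19 at 120 h (adjusted p = 0.00476), or -0.03 and -0.30 relative to the median region (adjusted p = 0.97 and 0.286). An intronic region 1840 bp from the start (chr9:59657928-59658437) was the highest of all glycolysis regions counted at 0 h only, with values of 390 and 298 before RA, 101 in 18 h replicate 2, 169 in 120 h replicate 1 and no peak in the other 4 libraries. The region 22992 bp downstream, open throughout, lay at the start of 4933407I18Rik.

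Ldha encodes the A subunit of lactate dehydrogenase, and its start was open in part of the libraries. Its start region (chr7:46845242-46847161, over a CpG island and also assigned to Gm5331) read 70 and 182 at its summit before RA and 61 in 18 h replicate 2, and no peak in the other 5 libraries. Among gene start regions with a CpG island and a peak in both 0 h libraries, 76.5% of 10185 had a peak in all 8 libraries and 9.51% were counted at 0 h only, as Ldha was. Its highest region was intronic, 1972 bp from the start (chr7:46847646-46847996), with values of 129 and 183 (0 h), 101 and 97 (18 h) and 57 and 106 (48 h), while at 120 h replicate 1 had 91 and replicate 2 no peak. This region had a peak in 7 libraries and the start region in 3, and neither was in the height comparison, which needed a peak in all 8 libraries. A further region counted at 0 h only, with values of 75 and 108 and 39 in 120 h replicate 2, lay at the start of the neighbouring Ldhc, which encodes the lactate dehydrogenase of sperm.

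**Figure D4:**
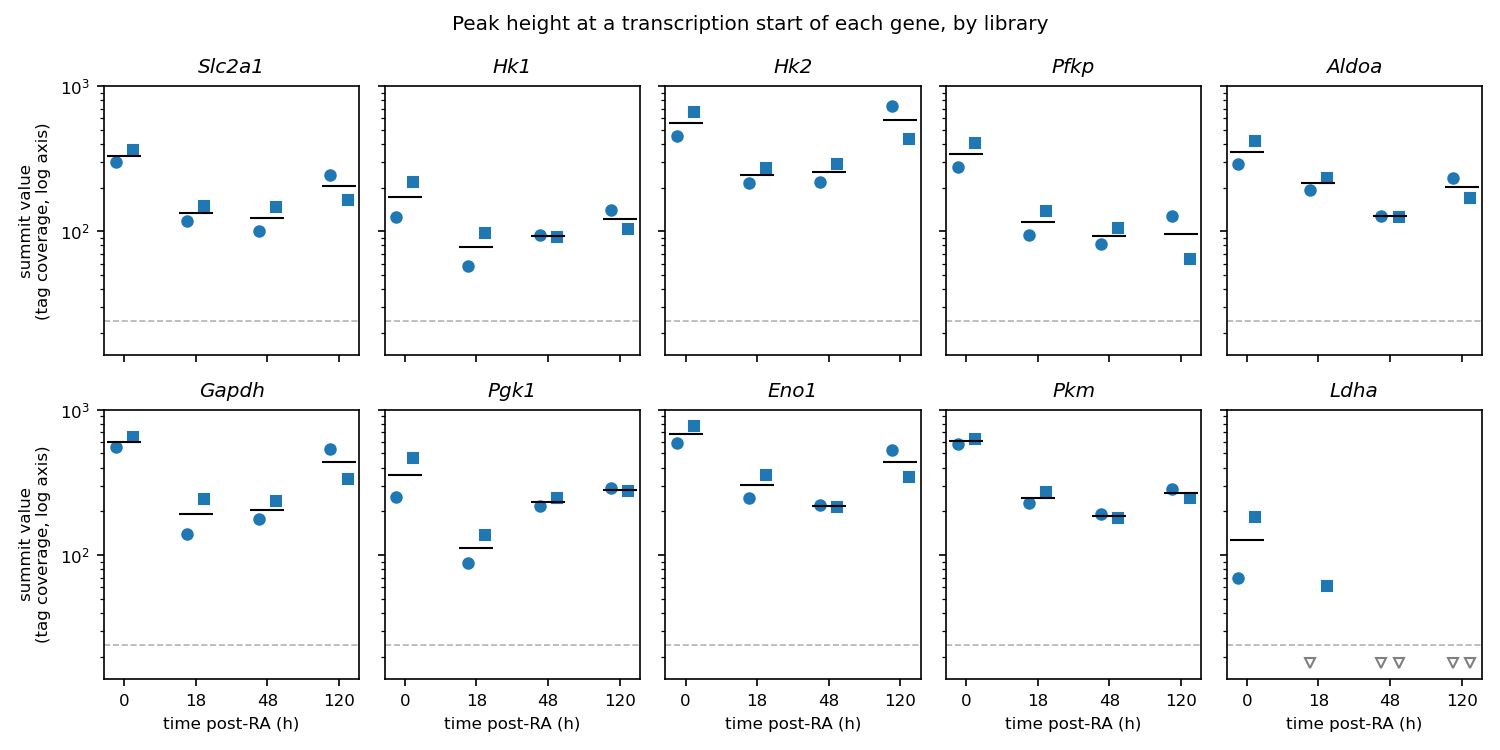
Summit value (tag coverage, log axis) by time post-RA at a start of each of the 10 genes, with circles for replicate 1, squares for replicate 2 and a black bar for the mean where both have a peak. The dashed line is the lowest summit value of any peak (24), open triangles below it are libraries without a peak, whose height is not known, and for Hk1 and Aldoa the region over a further RefSeq start is shown. Most genes dip at 18 and 48 h, Pfkp stays low at 120 h and Ldha has a peak in 3 libraries.

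The other genes of the pathway with a tested start were likewise lower at 18 and 48 h and differed among themselves at 120 h. Of 26 other glycolysis genes 16 had a peak in both libraries of all timepoints and 7 had a start region with a height in all libraries. All 7 were lower at 18 h and at 48 h and 1 (Pfkfb3) at 120 h, against 96.2%, 97.0% and 31.6% of all 8757 gene start regions. As deposited none of the 7 was higher at 120 h than at 0 h, against 5 of all 8757 start regions. Relative to the median region, the median change at 120 h against 0 h was 0.54, against 0.32 over all start regions. On this scale 4 of 7 were higher and none was lower, against 29.8% and 8.38% of all start regions. They were Pfkm, a phosphofructokinase subunit (0.74, adjusted p = 0.0209), Slc2a4, the insulin-responsive transporter GLUT4 (0.72, adjusted p = 0.0294), Pfkfb4, which sets the level of the phosphofructokinase activator (0.67, adjusted p = 0.0446), and Slc16a1, the lactate transporter MCT1 (0.54, adjusted p = 0.0459). Pfkm had values of 115 and 133 at 0 h and 114 and 109 at 120 h, while Pfkp, printed above, did not come back. The difference between Pfkm and Pfkp was not tested.

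Of 18 regulators, 13 had a start region tested. As deposited, 12 were lower at 18 and 48 h and 4 at 120 h, against 96.2%, 97.0% and 31.6% of all start regions. The region of Hif1a, the oxygen-sensitive subunit of hypoxia inducible factor 1, was the 1 that did not pass at 18 h, with values of 522 and 662 (0 h), 323 and 451 (18 h), 182 and 232 (48 h) and 425 and 344 (120 h). As deposited none of the 13 was higher at 120 h than at 0 h. After centring 2 regulators were lower at 120 h and 1 higher, against 8.38% and 29.8% of all start regions. Epas1, the subunit of hypoxia inducible factor 2, fell by 0.81 (adjusted p = 0.00655), Egln3, a prolyl hydroxylase that marks these subunits for degradation, fell by 0.54 (adjusted p = 0.0404), and Mlxipl, the glucose-sensing factor ChREBP, rose by 0.70 (adjusted p = 0.0287). Of 18 genes of pyruvate entry and the TCA cycle, 16 had a start region tested, all 16 were lower at 18 and 48 h (96.2% and 97.0% of all start regions) and 1 (Pdha1) at 120 h (31.6%), and from 48 to 120 h 11 of 16 rose, against 33.0% of all start regions. As deposited none of the 16 was higher at 120 h than at 0 h. After centring 9 of 16 were higher and none was lower, against 29.8% and 8.38% of all start regions. The median change was then 0.71 against 0.32. The centred changes ran up to 1.03 for Mdh2, malate dehydrogenase (adjusted p = 0.00206), and 1.39 for Idh3g, a subunit of isocitrate dehydrogenase (adjusted p = 0.000996). As deposited the changes of Mdh2 and Idh3g were 0.14 and 0.5 (adjusted p = 0.778 and 0.264 in limma). Quantile normalization and leaving out a library were not examined for the gene lists. Among 7 testis-specific glycolysis genes only the start of Ldhal6b was tested, and it fell by 0.99 relative to the median region at 120 h (adjusted p = 0.00378).

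**Figure D5:**
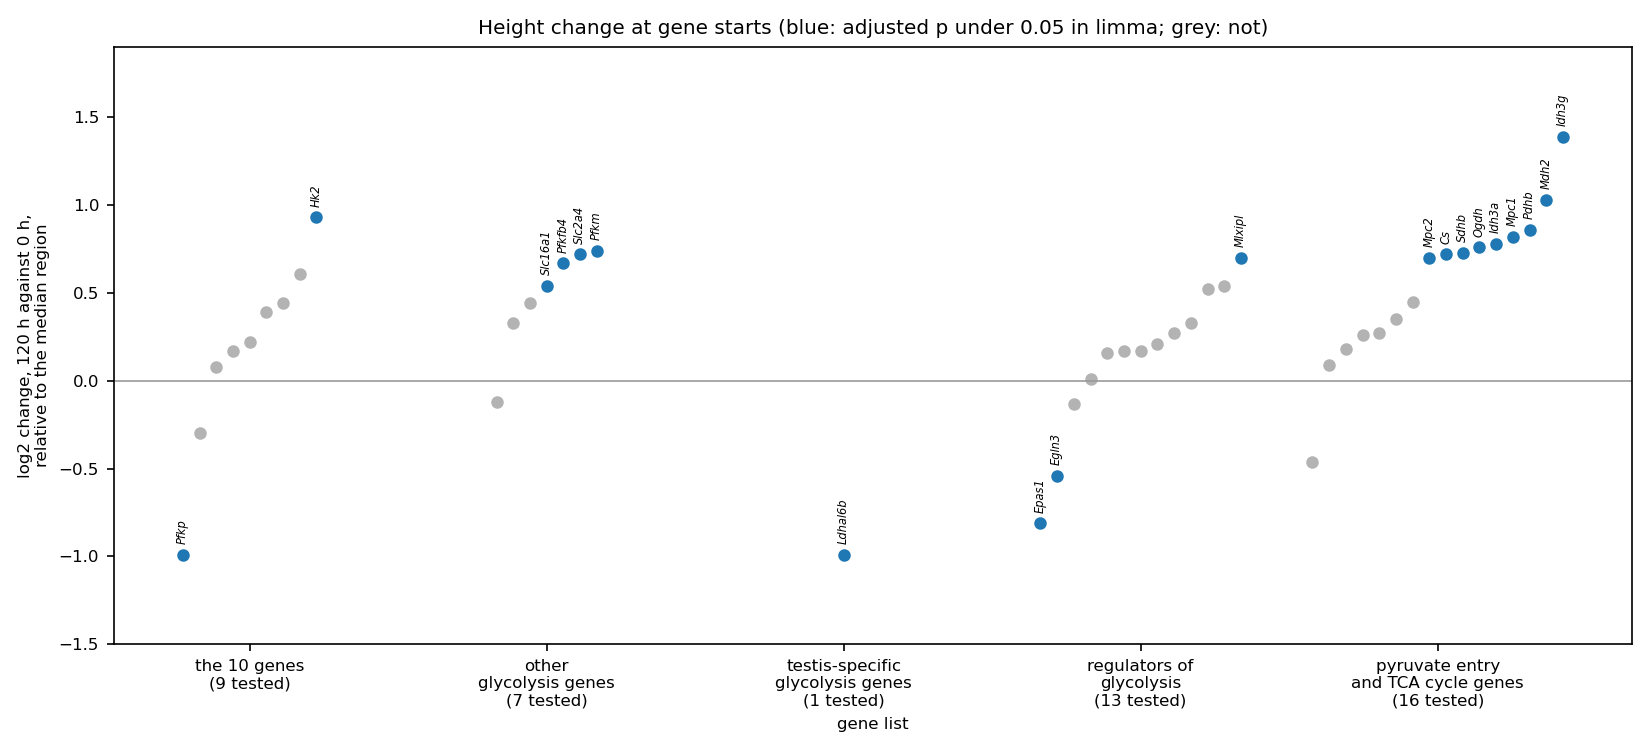
Log2 change in summit value at gene starts at 120 h against 0 h, relative to the median region, for the 9 of the 10 glycolysis genes with a height in all libraries at a start and for 4 further gene lists (x axis), with 1 point per gene, blue where the adjusted p in limma was under 0.05 and grey otherwise. Hk2 and Pfkp lie at opposite ends of the 10 genes, and 9 of 16 genes of pyruvate entry and the TCA cycle are blue and above 0.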

How the data were processed

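ATAC-seq was measured in 8 libraries, 2 per timepoint. The authors aligned reads to mm10 with BWA 0.7.12, removed duplicates, reduced all libraries to an equal number of tags and called peaks in each library with MACS2 2.1.0 (versions per the submitters' processing notes). The authors deposited the signal of each peak (tag coverage at its summit and the mean over the peak) and the genes assigned to it. Peaks overlapping by 1 bp were merged, and the authors' merged list held the same 87144 regions. A timepoint was counted where both libraries had a peak. Log2 summit values were compared with limma 3.58.1 (R 4.3.3; 4 timepoints as groups, lmFit then eBayes, without a block, Benjamini-Hochberg over 15536 regions, threshold 0.05) as deposited and after median centring, and the fit and the merging were tested on simulated data. Peak numbers were compared by exact permutation tests (Python 3.11.15, scipy 1.17.1). The study's test on read counts could not be repeated, since reads per region were not used here, so depth per region is unknown and no counting interval is given. Only limma was run on heights.

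Members and lists were chosen with earlier results of these data known. Named regions were each gene's start region (summit within 1000 bp), its highest region at 0 h, the 5 highest counted at 0 h only and those changed after centring. Other regions are named outside this rule, and not each is marked as such in its paragraph. Among the unmarked are the second Hk2 region and the Hk1 regions counted at 0 h only. The Pkm region at the start of 4933407I18Rik and the Ldha region at the start of Ldhc are also unmarked. GENCODE vM21 gave features and RefSeq the starts and sequences. Alternatives were other scaling (quantile, centring), mean signal, a replicate block, an intensity trend, only the timepoints compared, peaks of at least 50, summit windows of 100 bp, equal numbers of peaks, peaks within 1000 bp, either replicate, and each library left out. Centring with each library left out was added after seeing the data.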

Additional observations from a re-analysis of the deposited data

How the results depend on the processing

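The main limit is scale. The fall at 18 and 48 h is shared by nearly all regions, and the counts of lower glycolysis regions at 18 h and 48 h went from 14 and 14 to 0 with median centring, with quantile normalization and with centring plus a replicate block. At 120 h against 0 h the 4 lower regions became 1 (centring, with or without the block) or 2 (quantile), and the 0 higher regions became 1 (centring) or 2 (centring with the block, which adds Pgk1). With that block 1 region, that of Pgk1, was higher at 48 h. The 4 regions higher at 120 h than at 48 h became 2 (centring, with or without the block, and with only the timepoints compared) or 0 (quantile). Leaving out each library gave 9 to 15 lower regions at 18 h, 10 to 15 at 48 h, 1 to 12 at 120 h and 0 to 9 higher from 48 to 120 h, where a lone library is assumed to vary like the other groups. Libraries with the same replicate number were not paired in the labels, and their deviations correlated at -0.22 to 0.25. A replicate block as deposited gave 14, 14 and 4 lower regions at 18, 48 and 120 h and 3 higher from 48 to 120 h, and left the peak difference at 16.5. The intensity trend and the summit windows changed no call of a named region.

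Changes that turned positive with centring, with or without the block, were at 18 h Hk1 0.12, Hk2 0.08, Aldoa 0.55 and Eno1 0.07, at 48 h Pgk1 0.84, and at 120 h Slc2a1 0.17, Hk1 0.44, Aldoa 0.08, Gapdh 0.39, Pgk1 0.61, the Eno1 start 0.22 and the Eno1 region at -8365 bp 0.18. With quantile normalization those that turned were at 18 h Hk1 0.09, Hk2 0.05, Aldoa 0.57 and Eno1 0.02, at 48 h Pgk1 0.94, and at 120 h Hk1 0.49 and Pgk1 0.33. The Hk2 change of 0.04 at 120 h turned to -0.08 with the mean signal and ran from -0.33 (without 120 h replicate 1; -0.22 without 0 h replicate 1) to 0.42 with each library left out, and that of Pgk1 ran from -0.72 to 0.17 (without 0 h replicate 2).

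The summed peak difference of 16.5 (15.9 to 17.1 with each library left out) became 3.5 with equal numbers of highest peaks and 9.67 with peaks in or near the gene. Under equal numbers Pfkp (-0.5) and Slc2a1 (-0.17) reversed, and with near peaks Slc2a1 (-0.83). Ldha was not counted at all 4 timepoints with peaks of at least 50 or with peaks in or near the gene. The 13 regions at 0 h only became 3 with equal numbers and 8 with peaks of at least 50, and 10 to 17 with each library left out. The 0 regions at 120 h only became 2 with either replicate, 1 with equal numbers and 0 to 3 with each library left out. Shares of all regions under these settings were not computed. The cause of these changes was not tested beyond what the settings themselves do.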

Other observations

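The lists around the 10 genes held a few genes whose peak numbers followed another pattern, named here after their values were seen. Slc2a3, the high-affinity glucose transporter GLUT3, had 4 and 4 peaks in the 0 h libraries and 0 in all 6 later ones. Eno2, the neuronal enolase, had 5 and 7 peaks at 0 h and 0 to 2 later. Aldoart1, an aldolase of male germ cells, had 1 peak in both 0 h libraries and none later. Ldhc, the lactate dehydrogenase of sperm and the neighbour of Ldha, had 2 and 1 peaks at 0 h, 0 in all libraries of 18 and 48 h, and 3 and 2 at 120 h. Of the other testis-specific genes, Gapdhs had 1 peak in every library, Pgk2 had 1 peak in 3 libraries and Aldoart2 had none. Both 0 h libraries lay above all later libraries in 8 of the 26 other glycolysis genes, 6 of the 18 regulators, 3 of the 18 genes of pyruvate entry and the TCA cycle and 1 of the 7 testis-specific genes, against 38.4% of all genes.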
